A study of Rattus norvegicus with 12 samples.

Results

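Fos, Egr1, Arc, Npas4, Nr4a1, Junb and Bdnf are genes that neurons transcribe in response to activity. They were selected by their Ensembl rat identifiers, which are ENSRNOG00000008015 for Fos, ENSRNOG00000019422 for Egr1, ENSRNOG00000043465 for Arc, ENSRNOG00000020009 for Npas4, ENSRNOG00000007607 for Nr4a1, ENSRNOG00000042838 for Junb and ENSRNOG00000047466 for Bdnf. All 7 were present among the 25424 genes read. The symbols were supplied together with the identifiers, and no table used here pairs them.

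Synaptic activity lets calcium into the neuron, and calcium-dependent kinases then activate transcription factors already in the nucleus, such as CREB and SRF. Immediate early genes are switched on by these factors without the need for new protein, and their mRNAs are short-lived. Fos and Junb encode subunits of the AP-1 transcription factor, Egr1 a zinc finger factor, Npas4 a neuronal bHLH-PAS factor and Nr4a1 an orphan nuclear receptor. Arc encodes a synaptic protein that promotes removal of AMPA receptors, and its mRNA travels into dendrites. Bdnf encodes a neurotrophin that acts through the TrkB receptor and is transcribed from several alternative promoters.

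The cells were primary cortical neurons prepared from Sprague-Dawley rat embryos at embryonic day 18 and kept to 28 days in vitro. After 4 days in vitro the medium received d,l-amino-phosphonovalerate (APV), which the paper used to keep neurons healthy and limit excitotoxic death. Its part in the levels of these genes was not tested. Amyloid-β (Aβ), as a preparation of synthetic rat peptide that includes oligomers, was given at 100 nM for 24 h from 27 days in vitro, and control cultures received vehicle. All cultures, vehicle included, were exposed to cycloheximide, which halts elongating ribosomes on their mRNAs, for the last 10 min. RNA was taken from the lysate as total RNA, or from the pellet of a 20% sucrose cushion as ribosome-enriched RNA, giving 3 libraries for each fraction in each treatment, 12 libraries in 4 groups. Libraries are named here by group and sample number, and each run of 4 consecutive numbers holds 1 library of each group. A pellet of this kind holds mRNA that sediments with ribosomes, and it does not measure how fast an mRNA is translated. These are whole cultures, in which fewer cells expressing a gene and less RNA per cell cannot be told apart. Nothing used here pairs the symbols of neuronal or glial markers, or of further activity-regulated genes, with the identifiers of the table, so the cell makeup and the rest of the pathway were not analysed here.

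The libraries held 14.09 M to 20.04 M mapped fragments. Vehicle ribosome library 2 (14.09 M, 15079 genes above 0) and Aβ ribosome library 1 (14.31 M, 15566 genes) were lowest in both. Every other library had at least 16170 genes above 0. Each value is an FPKM (fragments counted on a gene, relative to its transcript length and to the mapped fragments of the library) divided by a size factor of its library, here called scaled FPKM. The 7 genes were covered by 48 to 1596 fragments in a library, so counting error alone was 2.5 to 14.4% of a value. Vehicle ribosome library 2 stood apart from the other ribosome libraries, with 7.92% of tested genes more than 1 log2 unit away from them, against 1.005 to 2.35% for the other ribosome libraries. The study describes its replicates as biological and the sequencing of both fractions as paired, without naming which libraries share a culture. The p-values measure the spread between these libraries. In 3 unnamed samples with lower RNA amounts a different bead capture was used, and its part in any result was not tested.

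The stretches just upstream of the transcription starts are shown because CREB and SRF are known to act on activity-regulated genes through sites in such regions. They come from RefSeq on the rat build GRCr8 and hold the 250 bases before the annotated start, 5′ to 3′ on the strand of the gene. Entries matched 5 of the 7 genes, Fos and Arc being the others. Capitals mark matches on either strand to 6 searched motifs: the cAMP response element (CRE, TGACGTCA), its core (TGACG, which also lies within every full CRE), the CArG box bound by SRF, the AP-1 site (TGACTCA or TGAGTCA), the EGR site (GCGTGGGCG or GCGGGGGCG) and the TATA box (TATAAA). The windows were chr18:26736828-26737077 on the plus strand for Egr1, chr7:134259888-134260137 on the plus strand for Nr4a1, chr19:40080876-40081125 on the plus strand for Junb, chr1:211716103-211716352 on the minus strand for Npas4 and chr3:116637608-116637857 on the plus strand for the fourth of 6 annotated starts of Bdnf.
Egr1: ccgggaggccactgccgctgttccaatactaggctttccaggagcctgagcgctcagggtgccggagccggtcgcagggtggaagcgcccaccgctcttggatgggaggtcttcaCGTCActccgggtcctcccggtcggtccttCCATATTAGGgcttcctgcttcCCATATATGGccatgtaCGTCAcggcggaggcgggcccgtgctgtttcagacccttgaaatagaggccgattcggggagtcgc
Nr4a1: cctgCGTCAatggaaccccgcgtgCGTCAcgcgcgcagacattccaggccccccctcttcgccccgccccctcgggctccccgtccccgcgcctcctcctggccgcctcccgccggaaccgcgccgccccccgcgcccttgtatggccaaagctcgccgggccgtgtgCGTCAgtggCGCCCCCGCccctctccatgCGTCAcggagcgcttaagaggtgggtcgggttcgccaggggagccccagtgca
Junb: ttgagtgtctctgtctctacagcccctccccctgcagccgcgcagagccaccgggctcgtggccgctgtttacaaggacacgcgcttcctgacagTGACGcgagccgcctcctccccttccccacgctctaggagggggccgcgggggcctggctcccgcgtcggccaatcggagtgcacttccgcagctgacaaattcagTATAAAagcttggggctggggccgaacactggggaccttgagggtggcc
Npas4: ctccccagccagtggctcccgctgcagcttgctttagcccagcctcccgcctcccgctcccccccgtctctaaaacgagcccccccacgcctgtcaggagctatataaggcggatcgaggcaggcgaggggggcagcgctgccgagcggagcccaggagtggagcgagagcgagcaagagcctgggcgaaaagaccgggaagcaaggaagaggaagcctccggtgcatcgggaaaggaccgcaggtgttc
Bdnf start 4: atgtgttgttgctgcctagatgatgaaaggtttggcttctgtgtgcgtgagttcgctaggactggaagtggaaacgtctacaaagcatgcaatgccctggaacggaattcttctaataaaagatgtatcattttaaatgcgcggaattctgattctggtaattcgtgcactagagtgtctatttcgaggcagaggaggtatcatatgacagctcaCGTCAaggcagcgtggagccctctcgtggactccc

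The Egr1 window held 2 CArG boxes, at 105 to 96 and 83 to 74 bases before the start, and 2 CRE cores. A CArG box was found in 1.5% of all 33469 promoter windows and a CRE core in 18.2%. Nr4a1 carried 4 CRE cores and an EGR site, a motif found in 2.85% of windows. Junb carried 1 CRE core and a TATA box, the latter found in 12.9% of windows. Of the 6 Bdnf windows only that of start 4 held a CRE core, and a match to the TATA box was also found in that of start 2. None of the searched letters occurred in the Npas4 window. The full CRE (1.59% of windows) and the AP-1 site (4.05%) were in none of the windows of the 5 genes. These matches describe letters in a short window, and the RNA counts do not say which Bdnf start was used.

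In total RNA the 7 genes spanned a wide range of levels per transcript length. Over the 6 total libraries Junb averaged 27.1 scaled FPKM (22.7 to 35.5), Egr1 10.03 (5.01 to 14.4), Bdnf 6.10 (5.16 to 7.59), Fos 5.66 (3.77 to 7.28), Nr4a1 5.08 (3.62 to 7.14), Arc 3.97 (2.998 to 4.90) and Npas4 1.27 (0.937 to 1.74). Junb lay wholly above Egr1 and Npas4 wholly below Arc, whereas the ranges of neighbours from Egr1 down to Arc overlapped. Npas4 was thus the scarcest of the 7 in total RNA, where 95.9% of tested genes had a higher mean. Tested were only the 12150 of 25424 genes whose mean FPKM over the 12 libraries reached 1. In total RNA alone Npas4 lay near that value, whereas the filter also took in the pellets, where Npas4 averaged 8.31 scaled FPKM.

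The order was different in the ribosome-enriched RNA. Junb averaged 59.4 scaled FPKM over the 6 libraries (28.5 to 71.5), Egr1 24.3 (11.4 to 41.1), Fos 18.1 (4.70 to 30.4), Nr4a1 9.51 (4.42 to 13.4), Npas4 8.31 (1.56 to 14.3), Bdnf 7.97 (3.98 to 11.8) and Arc 6.78 (2.93 to 16.0). The ranges of all neighbours in this order overlapped. Npas4, last in total RNA, stood above Bdnf and Arc here, and Bdnf stood below Fos and Nr4a1, both of which it led in total RNA.

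**Figure D1:**
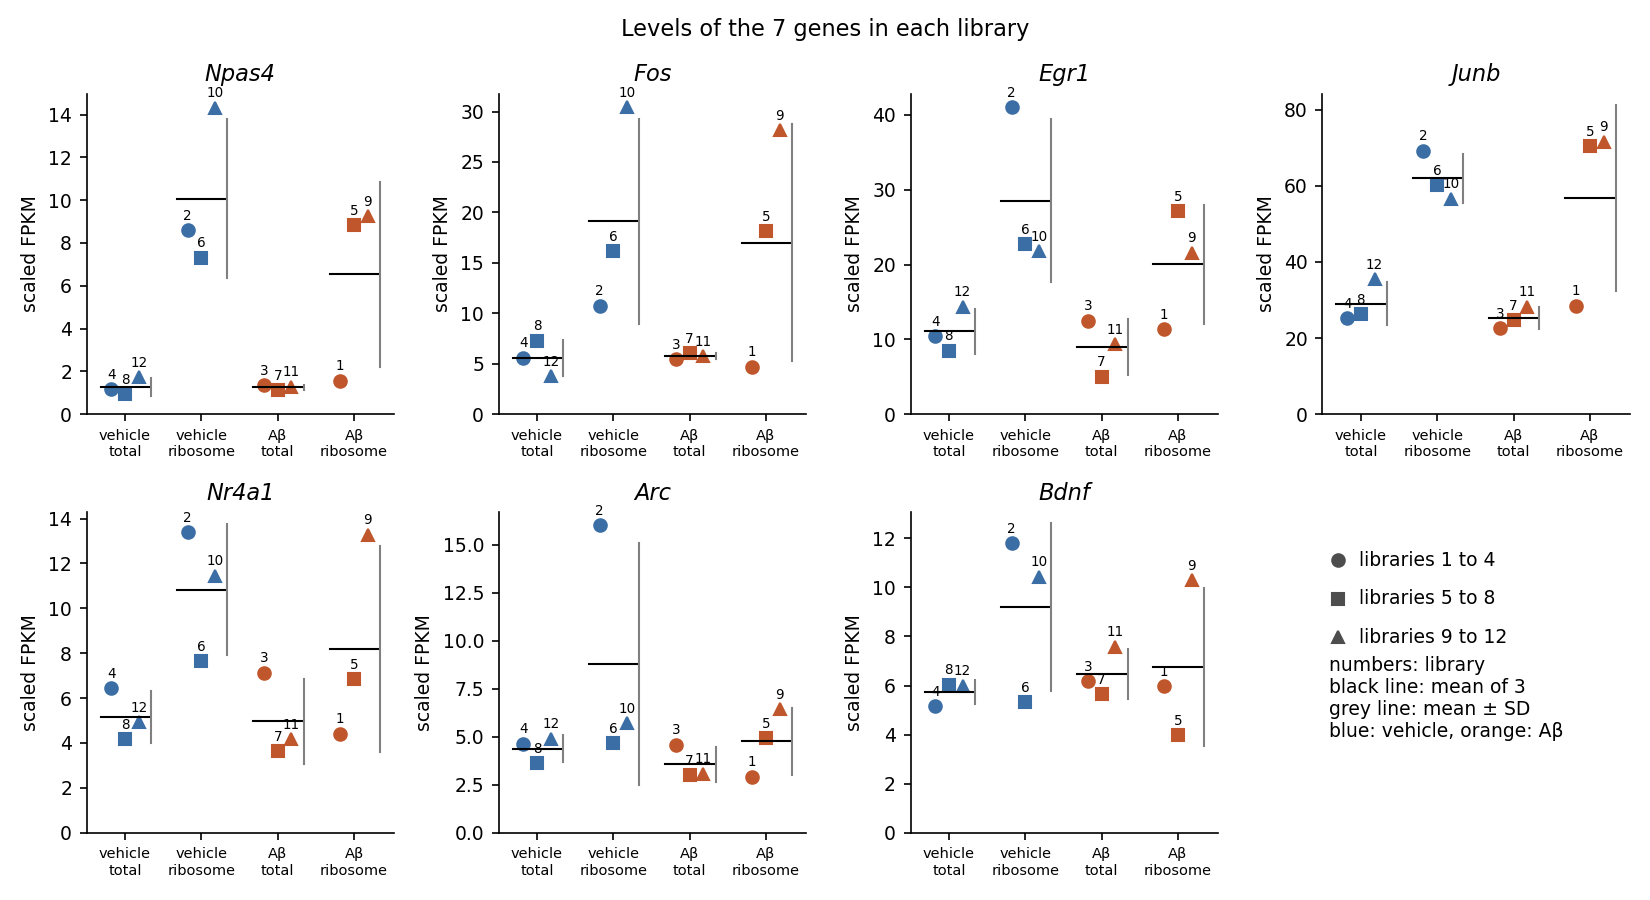
Scaled FPKM (vertical axes, linear and starting at 0) of the 7 genes in each of the 12 libraries, by group, with the library number beside each point, the mean of 3 as a black line and the mean ± SD as a grey line. Aβ ribosome library 1 lies below the other ribosome libraries for every gene except Bdnf.

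The first comparison asks which mRNAs were richer in the ribosome pellet than in total RNA. In vehicle cultures, Npas4, Fos, Egr1, Junb and Nr4a1 were higher in the ribosome fraction and Arc and Bdnf did not pass the test. Thus 5 of the 7 genes were called at an adjusted p under 0.05 (limma with Benjamini-Hochberg adjustment over 12150 genes), all higher in the ribosome fraction, where the same test called 32.3% of all genes in either direction and 15.9% as higher. The median log2 fold change was 1.08 over the 7 genes and 0.00 over all genes. Size factors fix that zero point: with FPKM as deposited the median of all genes moved to -0.30 in vehicle, -0.23 in Aβ and -0.26 over both treatments, so changes are given relative to the median gene.

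Npas4, whose protein drives genes that shape inhibitory synapses, differed most. It measured 8.60, 7.30 and 14.3 scaled FPKM in vehicle ribosome libraries 2, 6 and 10, and 1.18, 0.937 and 1.74 in vehicle total libraries 4, 8 and 12. The groups were far apart, and the log2 fold change on the log2(scaled FPKM + 1) scale was 2.24 (SE 0.26, n = 3 and 3, limma with Benjamini-Hochberg adjusted p = 0.00270). It ranked 15 among the 12150 genes tested. The added 1 understates the fold of so scarce an mRNA. The group means were 10.1 ± 3.73 in the pellet and 1.29 ± 0.412 in total RNA (SD, n = 3).

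Fos, the AP-1 subunit most used as a mark of recent activity, measured 10.7, 16.2 and 30.4 scaled FPKM in the vehicle ribosome libraries and 5.61, 7.28 and 3.77 in vehicle total. Every pellet was above every total library, although the pellets themselves spread widely, with a log2 fold change of 1.53 (SE 0.37, limma with Benjamini-Hochberg adjusted p = 0.0181). Junb, its partner in AP-1, was tighter, at 69.2, 60.1 and 56.6 against 25.3, 26.3 and 35.5. Its log2 fold change was 1.08 (SE 0.17, limma with Benjamini-Hochberg adjusted p = 0.00459).

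Egr1 measured 41.1, 22.7 and 21.8 scaled FPKM in vehicle ribosome libraries against 10.4, 8.51 and 14.4 in vehicle total. Library 2 was far above the other pellets, although all 3 exceeded total RNA, and the log2 fold change was 1.26 (SE 0.28, limma with Benjamini-Hochberg adjusted p = 0.0144). Nr4a1 measured 13.4, 7.64 and 11.5 against 6.44, 4.16 and 4.92, a log2 fold change of 0.92 (SE 0.24, limma with Benjamini-Hochberg adjusted p = 0.0228). Its groups did not overlap either.

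Arc, the dendritically localised member, measured 16.0, 4.65 and 5.71 scaled FPKM in vehicle ribosome libraries and 4.64, 3.62 and 4.90 in vehicle total. Only library 2 was clearly higher and the groups overlapped, with a log2 fold change of 0.69 (95% CI -0.22 to 1.60, limma with Benjamini-Hochberg adjusted p = 0.208). Bdnf measured 11.8, 5.31 and 10.4 against 5.16, 6.04 and 5.996, and library 6 lay within the total range. Its log2 fold change was 0.54 (95% CI -0.09 to 1.17, limma with Benjamini-Hochberg adjusted p = 0.162). Without vehicle ribosome library 6 Bdnf passed, at 0.85 (adjusted p = 0.0230, and 0.0230 to 0.551 over all alternatives).

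The vehicle ribosome libraries lay wholly above the vehicle total libraries for 5 of the 7 genes, against 26.0% of all genes. Npas4 and Junb were called under every vehicle alternative in which they were tested. Of the 5 calls 3 remained without vehicle total library 4 (Fos at 1.56 and Egr1 at 1.23 lost), without library 8 (Egr1 at 1.10 and Nr4a1 at 0.80 lost) or without library 12 (Fos at 1.32 and Nr4a1 at 0.90 lost). Calls over all genes fell from 3925 to between 1712 and 1867 in the same fits. Without vehicle ribosome library 6 Fos was lost and Bdnf gained.

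In Aβ-treated cultures the same genes led, with wider errors. Npas4, Junb and Egr1 passed, Fos and Nr4a1 were higher on average without passing, and Arc and Bdnf did not pass. That is 3 of 7 genes called, all higher in the ribosome fraction, where limma called 41.1% of all genes in either direction and 19.6% as higher. The median log2 fold change was 1.03 over the 7 genes and 0.00 over all genes.

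Npas4 measured 1.56, 8.82 and 9.25 scaled FPKM in Aβ ribosome libraries 1, 5 and 9, and 1.36, 1.12 and 1.28 in Aβ total libraries 3, 7 and 11. Library 1 barely exceeded total RNA while the other pellets were far above it, and the log2 fold change was 1.5 (SE 0.49, limma with Benjamini-Hochberg adjusted p = 0.0431). Junb measured 28.5, 70.3 and 71.5 in the pellets against 22.7, 24.7 and 28.3 in total RNA, a log2 fold change of 1.03 (SE 0.33, limma with Benjamini-Hochberg adjusted p = 0.0377). Again library 1 sat just above the highest total library.

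Egr1 measured 11.4, 27.1 and 21.6 scaled FPKM in Aβ ribosome libraries and 12.5, 5.01 and 9.40 in Aβ total. Library 1 fell inside the total range, and the log2 fold change of 1.07 (SE 0.37) lay at the threshold (limma with Benjamini-Hochberg adjusted p = 0.0494). Fos measured 4.70, 18.1 and 28.1 against 5.48, 6.07 and 5.73. Here library 1 was below every total library and the log2 fold change was 1.12 (95% CI -0.09 to 2.33, limma with Benjamini-Hochberg adjusted p = 0.1196).

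Nr4a1 measured 4.42, 6.84 and 13.3 scaled FPKM in Aβ ribosome libraries and 7.14, 3.62 and 4.16 in Aβ total, with a log2 fold change of 0.55 (95% CI -0.29 to 1.39). Arc measured 2.93, 4.91 and 6.43 against 4.59, 2.998 and 3.08, with a log2 fold change of 0.31 (95% CI -0.29 to 0.90). Both groups of each gene overlapped. Bdnf measured 5.98, 3.98 and 10.3 against 6.17, 5.64 and 7.59, a log2 fold change of -0.02 (95% CI -0.68 to 0.63) with library 5 lowest.

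The Aβ ribosome libraries lay wholly above the Aβ total libraries for 2 of the 7 genes, Npas4 and Junb, against 27.3% of all genes. Without Aβ ribosome library 1 the calls rose to 4, as Fos then passed with a log2 fold change of 1.81 (limma with Benjamini-Hochberg adjusted p = 0.00213, and 0.00213 to 0.287 over all alternatives). Without Aβ ribosome library 5 or 9, or Aβ total library 7 or 11, no gene of the 7 was called, and without Aβ total library 3 only Egr1 was. The log2 fold changes were then 1.16 to 1.53 for Npas4 and 0.81 to 1.12 for Junb, and calls over all genes went from 4993 to between 3025 and 5816. With FPKM as deposited none of the 7 was called in Aβ, where 5243 of 12150 genes were.

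**Figure D2:**
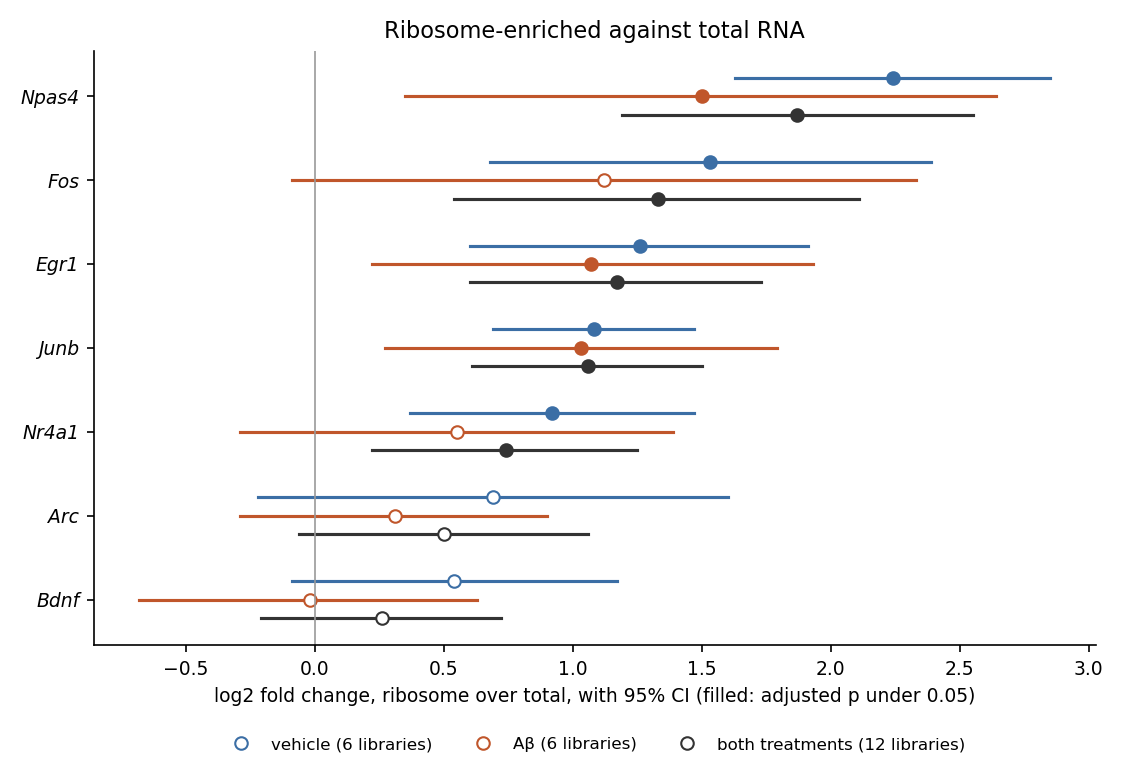
Log2 fold change of ribosome-enriched over total RNA (horizontal axis) with its 95% confidence interval from limma, for each gene in vehicle, in Aβ and over both treatments, filled where the adjusted p was under 0.05. Npas4 lies farthest right in each, from 1.5 to 2.24, and the intervals of Arc and Bdnf include 0 in all 3 comparisons.

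Over both treatments together, 5 of the 7 genes were called, all higher in the pellet, where limma called 57.3% of all genes in either direction and 28.3% as higher. Npas4 had a log2 fold change of 1.87 (SE 0.31), Fos 1.33 (SE 0.36), Egr1 1.17 (SE 0.26), Junb 1.06 (SE 0.20) and Nr4a1 0.74 (SE 0.24). Their adjusted p by limma with the Benjamini-Hochberg method were 0.000363, 0.00785, 0.00243, 0.000966 and 0.0197 in that order. Only 0.165% of tested genes had a higher value than Npas4, and 1.22% a higher value than Fos. Arc, at 0.50 (95% CI -0.06 to 1.06), and Bdnf, at 0.26 (95% CI -0.21 to 0.72), did not pass. Arc did pass without vehicle ribosome library 6 (0.65, limma with Benjamini-Hochberg adjusted p = 0.0463) and without both Aβ ribosome library 1 and vehicle ribosome library 2 (0.38, adjusted p = 0.0351, a choice made after seeing the data), its adjusted p running from 0.0351 to 0.421 over all alternatives.

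No gene of the 7 had all 6 ribosome libraries above all 6 total libraries (0 of 7, against 19.1% of all genes). For Fos, Egr1, Npas4 and Junb, 5 of the 6 pellets exceeded the highest total library, for Arc and Nr4a1 4 did, and for Bdnf 3 did. Of all genes called over both treatments, 3442 were higher and 3514 lower in the pellet, a split that became 1771 and 5471 with FPKM as deposited. In vehicle the split was 1932 and 1993, or 918 and 3644 as deposited, and in Aβ 2385 and 2608, or 1138 and 4105. The fold changes of Npas4, Fos, Egr1, Junb, Nr4a1 and Arc stayed above 0 under either scaling in each treatment, and that of Bdnf over both treatments was -0.00 as deposited.

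**Figure D3:**
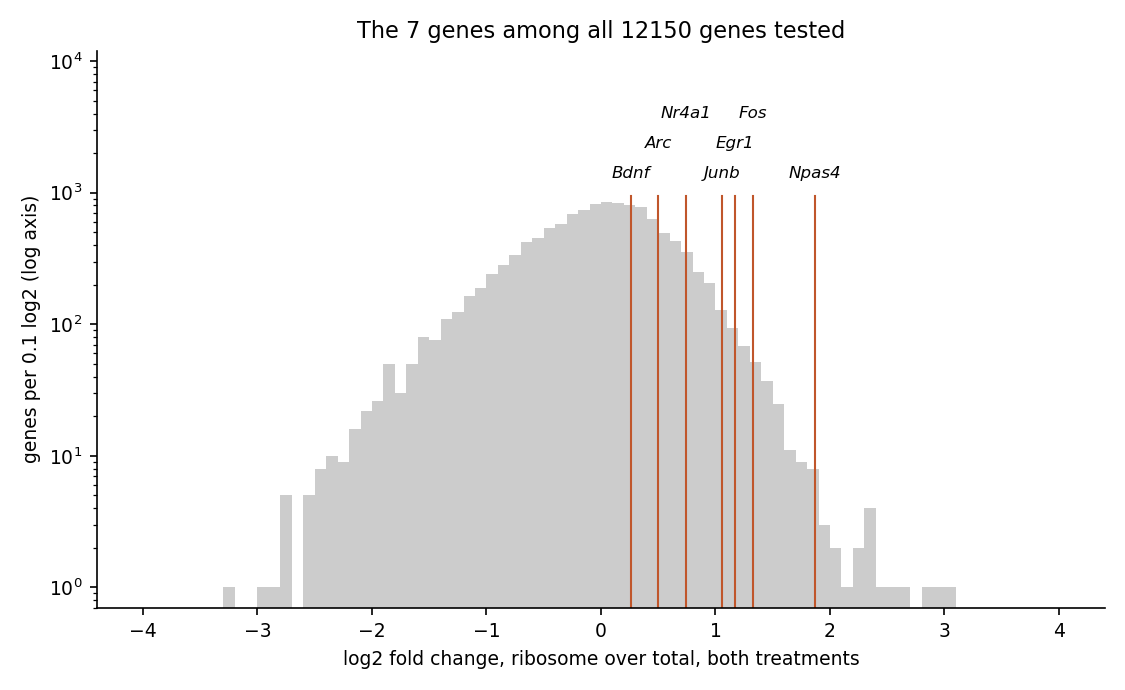
Number of genes (vertical axis, log scale) by log2 fold change of ribosome-enriched over total RNA across both treatments, for all 12150 genes tested, with the 7 genes as vertical lines. Npas4 at 1.87 lies in the far upper tail and Bdnf at 0.26 within the bulk.

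Comparing each pellet with the total RNA of its own run of 4 libraries gave 6 differences per gene, although it is an assumption that a run shares a culture. Npas4 was higher in the pellet in 6 of 6, by 0.12 to 2.48 on the log2(scaled FPKM + 1) scale, and Junb in 6 of 6, by 0.32 to 1.47. Fos, Egr1, Arc and Nr4a1 were higher in 5 of 6. The exception was the same each time, Aβ ribosome library 1 over Aβ total library 3. Bdnf was higher in 3 of 6, from -0.42 to 1.06.

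**Figure D4:**
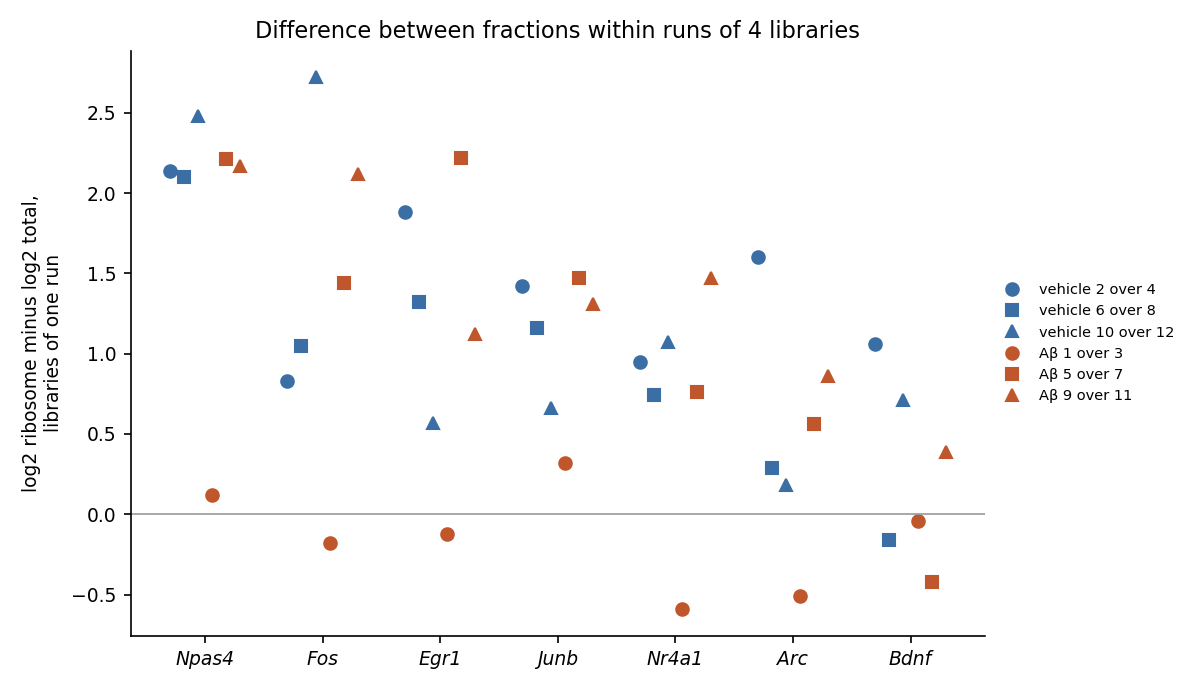
Difference of log2(scaled FPKM + 1) between the ribosome and the total library of one run (vertical axis) for each gene, blue for vehicle and orange for Aβ, with a symbol per run. Aβ library 1 over library 3 gives the lowest orange point for every gene except Bdnf, whereas all vehicle points except 1 of Bdnf are above 0.

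The 7 genes varied more between pellets than between total libraries. The SD of log2(scaled FPKM + 1) within groups, pooled over the vehicle and Aβ groups of a fraction, was larger in the ribosome fraction for 7 of 7 genes, from 0.53 for Junb to 1.0 for Fos, against 0.15 to 0.49 in total RNA. The median over all tested genes was also larger in the ribosome fraction, at 0.28 against 0.12 in total RNA. How many of all tested genes had the larger SD in the ribosome fraction was not counted. The variance of the fragment counts was 61.6 to 162 times that from counting alone in the pellets, and 3.39 to 73.6 times in total RNA. Only 1.37% of tested genes had a larger SD in the pellets than Fos, and 2.33% a larger one than Npas4.

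Over the 6 ribosome libraries Pearson's r of log2(scaled FPKM + 1) between members was above 0 in 21 of 21 pairs, from 0.18 to 0.90 with a median of 0.70. Over all pairs of tested genes in the same libraries 50.1% were above 0 and the median was 0.00. Fos and Npas4 were most alike (0.90), followed by Egr1 and Arc (0.88). Over the 6 total libraries 13 of 21 pairs were above 0, against 51.5% of all pairs of tested genes. There r ran from -0.98, for the same Fos and Npas4, to 0.84 for Egr1 and Arc. Its median was 0.15 (0.03 over all pairs of tested genes). Npas4 had only 48 to 75 fragments in these libraries. The points share libraries and their scaling, and r is given as a description. Over all 12 libraries the gene most like Fos was ENSRNOG00000022619 (r = 0.972) and that most like Bdnf was ENSRNOG00000012865 (r = 0.933).

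Aβ ribosome library 1 was the lowest of the 6 pellets for 6 of the 7 genes, the exception being Bdnf, whereas it was lowest for 14.8% of the other genes. Among the 3 Aβ pellets alone it was lowest for the same 6 genes, and for 51.2% of the 1927 other genes called higher in the vehicle pellets than in vehicle total RNA. Vehicle ribosome library 2 was the highest pellet for 4 of the 7 genes (Egr1, Arc, Nr4a1 and Bdnf), and for 29.1% of the others.

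The second comparison asks whether Aβ changed the levels of these mRNAs. In the ribosome fraction 0 of the 7 genes were called between Aβ and vehicle, where limma called 0.0% of all genes, with 178 genes and none of the 7 at an unadjusted p under 0.05. With voom weights on recovered fragments, 0 genes were called and 120 had an unadjusted p under 0.05. The differences were -0.75 for Npas4 (95% CI -1.71 to 0.21), -0.63 for Arc (-1.43 to 0.16), -0.51 for Egr1 (-1.31 to 0.29), -0.45 for Nr4a1 (-1.19 to 0.28), -0.41 for Bdnf (-1.07 to 0.24), -0.33 for Fos (-1.44 to 0.78) and -0.23 for Junb (-0.86 to 0.40), in log2 units. All 7 were below 0, as were 47.2% of all genes, and their median was -0.45 against 0.01 for all genes. The intervals reached below -1 for all but Junb. They use an estimate of spread shared with total RNA, where each of the 7 genes varied less.

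These differences varied between runs. Between Aβ ribosome library 1 and vehicle ribosome library 2 all 7 genes were lower with Aβ, by -0.88 (Bdnf) to -2.12 (Arc). In the second run (libraries 5 and 6) the difference was -0.34 for Bdnf, -0.14 for Nr4a1 and 0.06 to 0.25 for the other 5 genes. In the third (libraries 9 and 10) it was -0.58 for Npas4, -0.11 for Fos, -0.02 for Bdnf, -0.01 for Egr1 and 0.15 to 0.33 for Arc, Nr4a1 and Junb. Leaving out single pellets moved the median of the 7 genes both ways. It was -0.13 without Aβ ribosome library 1, where the signs of Fos (0.35) and Junb (0.20) turned, and -0.22 without vehicle ribosome library 2. It was -0.83 without Aβ ribosome library 9, with 3 of the 7 and 395 of all 12150 genes at an unadjusted p under 0.05. It was -0.66 without vehicle ribosome library 6 (2 of the 7, 502 of all genes) and -0.52 without Aβ ribosome library 5 (1 of the 7, 472 of all genes). Without vehicle ribosome library 10 it was -0.4, with 0 of the 7 and 1606 of all genes. None of the 7 was called by limma with Benjamini-Hochberg adjustment in any of these fits.

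In the ribosome fraction Bdnf was lower with Aβ in 3 of 3 runs (-0.88, -0.34 and -0.02), whereas in total RNA it was higher in 2 of 3. The share of all genes that were lower in every run was not counted. Runs within each fraction were then used as a replicate block, a fit chosen after seeing the data. There the Bdnf difference in the ribosome fraction, -0.41, had an SE of 0.16 and an unadjusted p of 0.0388. The limma Benjamini-Hochberg adjusted p was 0.695, and 627 of all 12150 genes had an unadjusted p under 0.05. No other gene of the 7 reached an unadjusted p under 0.05 in that fit.

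In total RNA 0 of the 7 genes were called between Aβ and vehicle, where limma called 0.0% of all genes, with 20 genes and none of the 7 at an unadjusted p under 0.05 (voom 0 genes called, 16 unadjusted). Both fractions shared an estimate of the spread of each gene. Npas4 thus had an SE of 0.44 in either, although its SD was 0.87 in the pellets and 0.19 in total RNA. Intervals and p-values in total RNA therefore carry the larger spread of the pellets. The differences were smaller than in the ribosome fraction, from -0.33 for Egr1 (95% CI -1.13 to 0.47) to 0.14 for Bdnf (-0.51 to 0.80). Npas4 differed by -0.01 (-0.97 to 0.95) and Fos by 0.08 (-1.03 to 1.19). Arc was at -0.25 (-1.05 to 0.54), Junb at -0.19 (-0.81 to 0.44) and Nr4a1 at -0.08 (-0.81 to 0.66). Their median was -0.08 and that of all genes 0.00. Arc (-0.01, -0.21 and -0.53) and Junb (-0.15, -0.09 and -0.32) were lower with Aβ in 3 of 3 runs, in part by values near 0. How many of all genes kept their sign over the runs was not counted.

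The interaction asks whether the excess in the pellet differed between treatments. For 0 of the 7 genes did it pass, where limma called 0.0% of all genes, with 84 genes and none of the 7 at an unadjusted p under 0.05 (voom 0 genes called, 64 unadjusted). The values, Aβ minus vehicle, were -0.74 for Npas4 (95% CI -2.10 to 0.62), -0.56 for Bdnf (-1.49 to 0.37), -0.41 for Fos (-1.98 to 1.16), -0.38 for Arc (-1.51 to 0.74), -0.38 for Nr4a1 (-1.41 to 0.66), -0.18 for Egr1 (-1.31 to 0.95) and -0.05 for Junb (-0.93 to 0.84). The smaller number of calls in Aβ than in vehicle is therefore not a difference between treatments that the test shows. With the runs within each fraction as a replicate block the Bdnf value of -0.56 had an SE of 0.23 and an unadjusted p of 0.0463 (limma with Benjamini-Hochberg adjusted p = 0.916). In that fit, chosen after seeing the data, 1 of the 7 and 309 of all 12150 genes had an unadjusted p under 0.05. The median of the 7 genes was -0.38 with all libraries. It ranged from -0.75 without Aβ ribosome library 9 to -0.05 without Aβ ribosome library 1. Without Aβ ribosome library 9, 1 of the 7 and 207 of all genes had an unadjusted p under 0.05. The median was -0.59 without vehicle ribosome library 6 (1 of the 7, 203 of all genes). It was -0.34 without vehicle ribosome library 10 (0 of the 7, 613 of all genes). It was -0.22 without vehicle ribosome library 2 and -0.23 without Aβ total library 3. Without both Aβ ribosome library 1 and vehicle ribosome library 2, a choice made after seeing the data, it was 0.10.

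**Figure D5:**
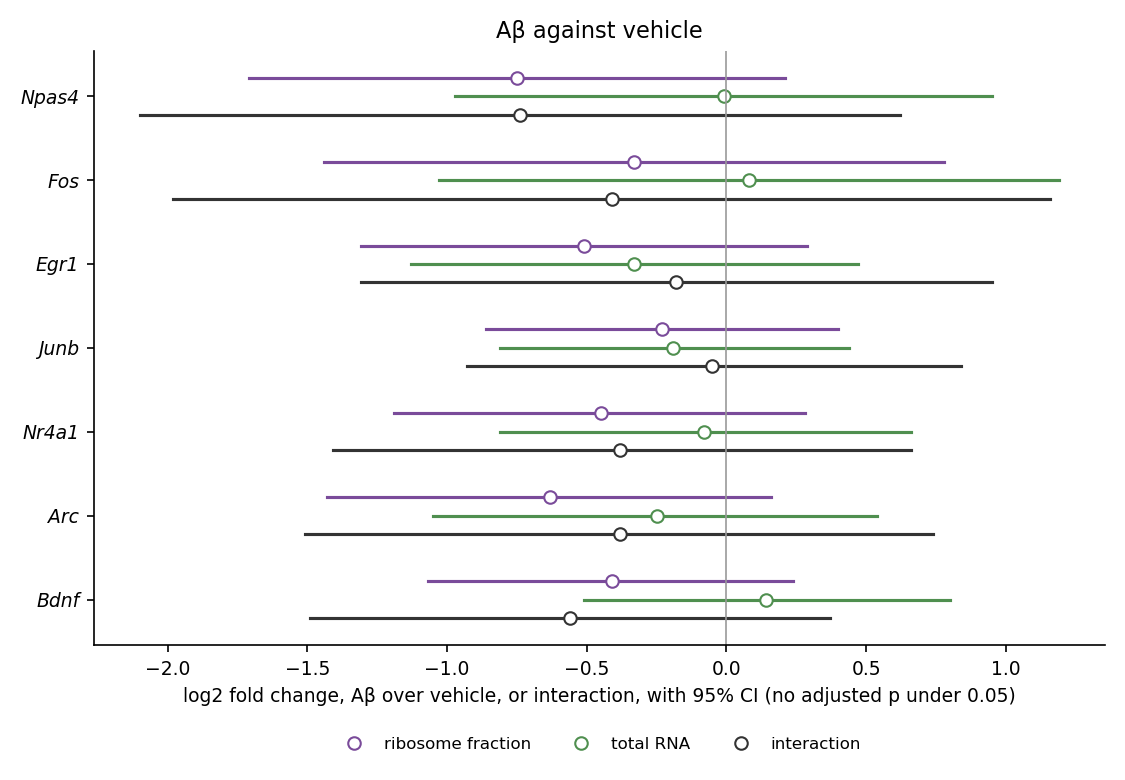
Log2 fold change of Aβ over vehicle (horizontal axis) with its 95% confidence interval from limma in the ribosome fraction and in total RNA, and the interaction of treatment and fraction, for each gene. Every interval includes 0, and all 7 points of the ribosome fraction lie between -0.75 and -0.23.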

How the data were processed

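RNA-seq libraries (3 in each of 4 groups, grouped by their labels) were analysed from FPKM. The authors aligned paired-end reads with TopHat2 2.0.12 on a Bowtie2 2.2.3 index, counted fragments per gene with HTSeq 0.6.1 in union mode and deposited FPKM per library, unpooled and without scaling between libraries. The genome build, annotation release and strand setting are not given in the sources used here, so antisense reads could not be told apart. The submitters' processing notes also list CASAVA 1.8 and DESeq. Of 25425 rows, 1 was incomplete and left out.

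FPKM steps gave whole fragments (within 0.003) for 12150 of 12150 tested genes (100%) and the mapped fragments of each library, 14.09 M to 20.04 M. Counting errors from these do not cover amplification. Size factors (median of ratios) scaled the libraries. The filter kept genes whose mean FPKM reached 1, which were tested on log2(scaled FPKM + 1) with limma 3.58.1 in R 4.3.3 (eBayes with trend, two-sided, Benjamini-Hochberg threshold 0.05). Each treatment had its own fit of 6 libraries for the contrast of fractions, and all other contrasts came from one fit of 12. That fit gave each gene an estimate of spread shared by both fractions. The code was tested on simulated data. Python 3.11.15 with pandas 2.3.3, numpy 2.4.6, scipy 1.17.1 and matplotlib 3.10.9 was used.

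Alternatives changed the scaling (none, or upper quartile), the pseudocount (0.1), the filter (none, or a mean FPKM of 5), the libraries (each omitted in turn), the moderation (no trend), the fit (all 4 groups), the weights (voom on fragments) and the pairing (runs as a replicate block). Libraries of one run deviated together within a fraction (correlation 0.406 to 0.699 in ribosome and 0.413 to 0.543 in total libraries), not between fractions (-0.196 to 0.068), so runs within each fraction were added as a block after seeing the data, as was the removal of 2 ribosome libraries together. The 7 genes, the planned lists and the rule for named genes (the 7, plus the gene most like Fos and that most like Bdnf) were chosen with earlier results of these data known. The planned marker and pathway lists could not be matched, because the RefSeq tables hold none of the Ensembl identifiers. Genes with other identifiers (1722) stayed in the fits.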

Additional observations from a re-analysis of the deposited data

Results flagged for a closer look

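Npas4 and Junb in the 6 ribosome libraries each had 1 library set apart from the rest. For both it was Aβ ribosome library 1, the lowest, and its gap to the next library was 0.658 of the whole range for Npas4 and 0.744 for Junb, above the 95% critical value of Dixon's test for 6 libraries. Groups of 6 libraries were searched 14 times (7 genes in 2 fractions), of which chance flags about 0.7 if all are independent. They are not, as Pearson's r of Npas4 and Junb was 0.86 over the ribosome libraries, and each group holds both treatments. Among the other tested genes 9.59% passed the same limit in the ribosome libraries, and vehicle ribosome library 2 set 81.2% of those against 11.1% for Aβ ribosome library 1. In total libraries 3.78% passed. What set Aβ ribosome library 1 apart for these genes was not tested.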

How the results depend on the processing

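The number of the 7 genes called within one treatment changed with several settings. Members called in vehicle (5) were 2 with no filter on the mean FPKM, where 2938 of 19516 genes were called. They were 4 with FPKM as deposited (4562 of 12150 genes) and 3 to 5 with a library left out. Members called in Aβ (3) were 0 with FPKM as deposited (5243 of 12150 genes), 0 with no filter (4091 of 19516) and 0 to 4 with a library left out. In Aβ, Egr1 was lost with a pseudocount of 0.1, without trend and with the runs as a replicate block. Npas4 was lost with voom, and 2 members remained in each of these fits. Over both treatments (5) the count stayed within 4 to 6 in every alternative run, Nr4a1 being lost with FPKM as deposited (0.47). A stricter filter (mean FPKM of at least 5) dropped Npas4 from testing. The interaction and the comparisons of Aβ with vehicle called none of the 7 genes under any alternative. Over all genes, calls in vehicle (3925) fell to 1712, 1847 and 1867 without vehicle total library 4, 8 and 12 and to 2562 without vehicle ribosome library 6, and calls in Aβ (4993) to 3025, 3140 and 3189 without Aβ total library 3, 7 and 11. A single gene was called, none of the 7, between treatments in total RNA and by the interaction, either with no filter or without vehicle total library 8.

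Signs turned for the following values, none of which passed the test in either setting. With FPKM as deposited Bdnf over both treatments was -0.00 and the Junb interaction 0.03. Npas4 between treatments in total RNA was 0.00 with a pseudocount of 0.1 and 0.02 with voom. With a library left out, Bdnf in Aβ ranged from -0.33 to 0.26, Fos between treatments from -0.83 to 0.35 in the ribosome fraction and from -0.13 to 0.27 in total RNA, Junb in the ribosome fraction from -0.45 to 0.20, and in total RNA Npas4 from -0.12 to 0.13 and Nr4a1 from -0.32 to 0.09. The interaction ranged from -0.90 to 0.27 for Fos, -0.51 to 0.16 for Egr1, -0.69 to 0.10 for Arc and -0.27 to 0.38 for Junb. Without both Aβ ribosome library 1 and vehicle ribosome library 2 it was 0.44 for Egr1, 0.36 for Arc, 0.10 for Nr4a1 and 0.46 for Junb. The cause of each change was not tested.

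The runs share only sample numbers across fractions. With the runs as a replicate block, 5 members were called in vehicle, 2 in Aβ and 5 over both treatments, and the genes called were 3356, 4293 and 7189. Egr1 was the member lost in Aβ (limma with Benjamini-Hochberg adjusted p = 0.0726). With the runs within each fraction as a replicate block, 5 members and 8397 genes were called over both treatments, and 0 between treatments in either fraction or by the interaction. Each of the 7 genes had at least 48 fragments in every library, where counting error reached 14.4% for Npas4, and the calls were not tested against depth.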
